A study of Mus musculus with 12 samples.

Results

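The regions described here are stretches of open chromatin that carried a peak in 5 libraries of mouse cells and in none of 3 others. Peaks of all 12 libraries of the series that overlapped by at least 1 bp on chromosomes 1 to 19 and X were merged, which gave 153346 regions. A region is a member, called lost below, when it was called in BM_unt (Wt replicate 3), BM_IGF1 (Wt_IGF1 replicate 1), S_203_0 (Wt replicate 4), S_220_0 (EF replicate 3) and S_221_0 (EF replicate 4). It also had to have no peak in S_220_IGF1 (EF_IGF1 replicate 1), S_221_IGF1 (EF_IGF1 replicate 2) and S_221_IGF1_xeno (EF_IGF1_xeno replicate 1). There were 1247 lost regions, 0.813% of all regions and 4.72% of the 26414 regions called in all 5. The calls in these 8 libraries chose the members, so they are given as a description with no test.

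ATAC-seq maps open chromatin by letting a transposase cut accessible DNA, here in cells that the labels call MSCLCs. The title of the series names bone mesenchymal stem cells, IGF-1, YAP1 and EWS::FLI1, the oncogenic fusion found in Ewing sarcoma. The 5 genotype labels of the series are Wt, Wt_IGF1, EF, EF_IGF1 and EF_IGF1_xeno, and the design text uses the name EFPrx1. The sources used here do not say what EF and xeno stand for, which promoter drives an allele, what the dose and time of IGF1 were, or whether a line is 1 clone. The 8 libraries of the rule were sequenced on flowcell BSF_1013, lane 6. The other 4, on flowcell BSF_0654, lane 4, are S_220_1 and S_221_1 (EF replicates 1 and 2) and WT_1_1 and WT_2_1 (Wt replicates 1 and 2). These 4 played no part in the rule and are called held-out libraries below. Nothing in the labels says that libraries of 1 group came from separate animals.

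Mesenchymal stem cells of bone can give rise to osteoblasts, chondrocytes and adipocytes, and they hold their place by adhesion to matrix and neighbouring cells. Open chromatin away from gene ends often marks enhancers, which differ between cell types more than promoters do. IGF-1 is a growth factor that signals through the receptor kinase Igf1r, and EWS::FLI1 can open or close enhancers.

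The libraries held 7748 to 83718 peaks. Wt replicate 1 had the fewest and Wt_IGF1 replicate 1 the most. The sources used here give no read totals, so the number of peaks stands for depth. The 3 libraries without the lost regions listed 59325, 63506 and 43416 peaks. In the libraries of the same flowcell that define the lost regions by their peaks, the lists ran from 52823 to 83718. EF_IGF1 replicates 1 and 2 lay within that range, and EF_IGF1_xeno replicate 1, at 43416, lay below it. EF_IGF1 replicate 1, labelled as line S_220, stood nearer to the untreated library of line S_221. Its Jaccard index, the regions called in both libraries over those called in either, was 0.599 with EF replicate 4 (S_221_0) and 0.406 with EF replicate 3 (S_220_0). EF_IGF1 replicate 2 gave 0.625 and 0.419 with the same libraries, and EF_IGF1_xeno replicate 1 gave 0.526 with EF replicate 4, again more than with EF replicate 3. All 3 libraries without the lost regions were thus nearer to S_221_0 than to S_220_0. With the Wt and Wt_IGF1 libraries of the flowcell, EF_IGF1 replicate 1 gave 0.410 to 0.439 and EF_IGF1 replicate 2 gave 0.457 to 0.491. Both were thus nearer to those libraries than to EF replicate 3. So was EF replicate 4, with 0.454 to 0.504 there and 0.439 with EF replicate 3. A low index with EF replicate 3 was therefore not particular to the IGF1 libraries. By the labels, lines S_220 and S_221 each stand untreated among the libraries with the lost regions and with IGF1 among those without. Whether the line label of EF_IGF1 replicate 1 is right was not tested. Among the regions of the blood marker list, 60.9% were called in Wt replicate 2, where 38.4% of all regions were called. In the other libraries the share ran from 5.88% in Wt replicate 1 to 43.7% in Wt_IGF1 replicate 1. Over all regions these 2 libraries called 4.87% and 51.9%.

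Sequences of the lost regions themselves could not be printed without a genome, but some lost regions cover gene starts. RefSeq windows from 250 bases before to 50 bases after a gene start, build GRCm38.p6, were matched to them, and 169 windows of 152 genes overlapped 140 lost regions. The 4 below lie wholly in lost regions and are shown because their genes carry results given further on. Prickle2 encodes a planar cell polarity protein, Galnt17 a glycosyltransferase of the mucin type, Creb5 a bZIP transcription factor and Npy1r a receptor of neuropeptide Y. Each line gives the 250 bases before the start, 5′ to 3′ on the strand of the gene. Capitals mark GGGCGG (SP and KLF factors), TGACGTCA (CRE), TGANTCA (AP-1) and GGAATG (TEAD), searched on both strands.
Prickle2, chr6:92706185-92706434, minus strand: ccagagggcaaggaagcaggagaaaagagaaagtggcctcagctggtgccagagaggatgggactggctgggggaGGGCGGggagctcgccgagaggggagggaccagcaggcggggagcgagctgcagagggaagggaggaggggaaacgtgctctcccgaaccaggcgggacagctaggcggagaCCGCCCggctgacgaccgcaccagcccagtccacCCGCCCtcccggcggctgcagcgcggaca
Galnt17, chr5:131307523-131307772, minus strand: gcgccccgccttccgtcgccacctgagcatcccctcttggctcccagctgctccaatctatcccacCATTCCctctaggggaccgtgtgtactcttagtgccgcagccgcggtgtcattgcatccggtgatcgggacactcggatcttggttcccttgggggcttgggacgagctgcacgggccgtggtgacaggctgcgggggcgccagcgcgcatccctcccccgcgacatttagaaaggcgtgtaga
Creb5, chr6:53287053-53287302, plus strand: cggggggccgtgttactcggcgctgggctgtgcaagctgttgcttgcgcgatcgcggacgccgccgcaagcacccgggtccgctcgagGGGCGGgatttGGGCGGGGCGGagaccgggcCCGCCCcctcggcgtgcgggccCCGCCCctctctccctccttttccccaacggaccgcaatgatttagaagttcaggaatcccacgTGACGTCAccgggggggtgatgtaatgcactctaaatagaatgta
Npy1r, chr8:66697172-66697421, plus strand: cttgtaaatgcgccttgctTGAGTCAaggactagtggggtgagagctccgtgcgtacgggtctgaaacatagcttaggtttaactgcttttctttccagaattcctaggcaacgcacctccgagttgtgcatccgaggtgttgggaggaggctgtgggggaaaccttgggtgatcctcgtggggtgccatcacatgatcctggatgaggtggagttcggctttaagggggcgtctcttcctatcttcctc

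The Prickle2 and Creb5 windows held 3 and 5 matches of GGGCGG, and the last pair in Creb5 on the given strand overlap. Creb5 also held 1 CRE, Npy1r 1 AP-1 match and Galnt17 1 TEAD match. GGGCGG stood in 95 of the 169 windows that overlapped lost regions (56.2%), in 33.0% of all 32619 windows and in 62.4% of those in regions called in all 8 libraries. The median GC content was 62.0% in the lost windows and 61.2% in windows called in all 8, against 52.4% over all windows. TEAD matches stood in 12.4% of the lost windows, 12.6% of all and 1027 of the 10265 called in all 8. For AP-1 the shares were 7.69%, 6.78% and 4.24%, and for CRE 1.78%, 1.56% and 3.11%. GGAAGT, the core bound by ETS factors such as FLI1, stood in 17 lost windows (10.1%), in 19.8% of all windows and in 24.5% of those called in all 8. In base composition the lost windows were thus near the windows called in all 8, with fewer of them holding the ETS core. That gap was not particular to ETS. CCAAT stood in 26.0% of lost windows against 37.5% of those called in all 8, and TTGGC (NFI factors) in 36.7% against 45.8%. The other way leaned ACCACA (RUNX factors), with 16.6% against 9.76%, and TATAAA, with 8.28% against 5.11%, as did TEAD and AP-1. These matches describe letters only.

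Most lost regions lay away from gene ends. Of the 1247, 161 (12.9%) had their summit within 1 kb of either end of a protein-coding gene, against 38.6% of the 20729 regions called in all 8 libraries and 10.8% of all regions. A further 616 (49.4%) lay inside a gene, 339 (27.2%) outside but within 100 kb of one, and 131 (10.5%) farther away. In regions called in all 8 these shares were 32.4%, 24.8% and 4.19%. Over all regions 45.8% lay inside a gene and away from its ends. Among regions called in the 5, 6.06% of those beyond 1 kb of a gene end were lost and 1.9% of those nearer. The median width of a lost region was 623 bp, and that of a region called in all 8 was 925 bp. Of the regions beyond 1 kb of a gene end, 56.7% of the lost and 52.8% of those called in all 8 lay inside a gene. Lost regions were therefore narrower and less often at gene ends than regions called in all 8. The gap in the share inside genes was small once gene ends were left out. Against regions called in the 5 and in only 1 or 2 of the EF_IGF1 and EF_IGF1_xeno libraries, the order was reversed. Those had median widths of 575 and 539 bp, with 6.61% and 7.47% within 1 kb of a gene end. In bulk cells a missing peak can mean fewer cells with the site open or less opening per cell, and these cannot be told apart.

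Few lost regions had a peak of the 3 libraries just to the side, and a peak that overlapped would have counted as a call. In 32 of the 1247 (2.57%) a peak of any of the 3 libraries lay within 500 bp, and the median distance to the nearest such peak was 10813 bp. Just outside the rule stood 1438 regions called in the 5 and in 1 of the 3. Of these, 1054 were called only in EF_IGF1 replicate 2, 306 only in EF_IGF1 replicate 1 and 78 only in EF_IGF1_xeno replicate 1. Their peaks there were low, at median percentiles of 32.1, 19.9 and 15.2 of the library's own list by −log10 p, the authors' measure of peak strength. On the other side, 3596 regions were called in 4 of the 5 and in none of the 3, and the missing library was EF replicate 4 for 1793 and EF replicate 3 for 1201. The number of lost regions thus hung on 3 libraries: it was 3040 without EF replicate 4, 2448 without EF replicate 3 and 2301 without EF_IGF1 replicate 2. The mirror image of the rule, called in the 3 and in none of the 5, held 1220 regions, 0.796% of all and 3.38% of those called in the 3.

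The lost regions were of middle strength in the Wt libraries and weak in S_221_0. By percentile within the list, their median was 54.0 in Wt replicate 3, 67.1 in Wt_IGF1 replicate 1, 57.8 in Wt replicate 4, 47.9 in EF replicate 3 and 31.3 in EF replicate 4. Regions called in all 8 stood at 71.1, 81.9, 78.8, 75.2 and 81.2. The gap to regions called in all 8 was widest in EF replicate 4. There the median fold over local background, also the authors' value, was 6.67 at lost regions and 10.2 at regions called in all 8. EF replicate 4 was the library with the lowest percentile for 625 lost regions (50.1%), and for 11.6% of the regions called in all 8. Regions called in the 5 and in 1 of the 3 had median percentiles of 55.0, 68.1, 61.1, 46.4 and 40.6. Those called in 2 of the 3 had 50.6, 61.4, 55.3, 45.6 and 49.7. Middle strength in the Wt libraries was thus not particular to the lost regions.

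**Figure D1:**
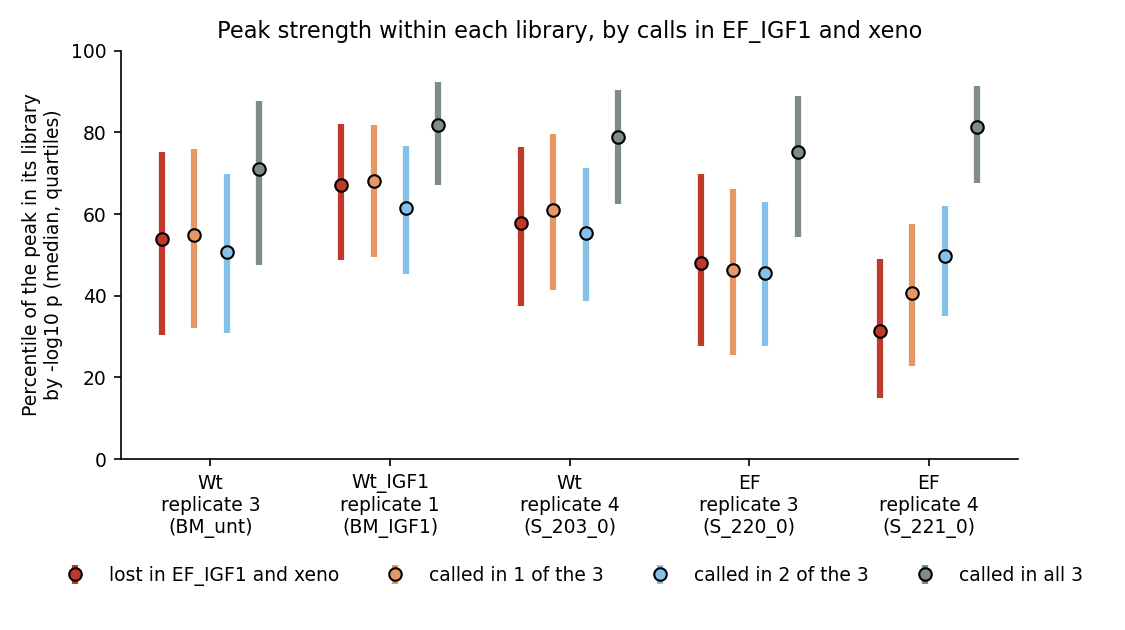
Percentile of peaks within each library's list by −log10 p (0 to 100) in the 5 libraries of the rule, for regions called in the 5, coloured by how many of the 3 EF_IGF1 and EF_IGF1_xeno libraries called them. Points are medians and bars run from the lower to the upper quartile. Lost regions sit lowest in EF replicate 4, at a median of 31.3, where regions called in all 3 sit at 81.2.

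The 4 held-out libraries gave calls that the rule had not used. Of the 1247 lost regions, 81.3% (exact Clopper-Pearson 95% interval 79.0 to 83.4) were called in EF replicate 1 (S_220_1), where 90.7% of the regions called in the 5 and 32.5% of all regions were called. In EF replicate 2 (S_221_1) the share was 18.4% (16.3 to 20.7) beside 65.1% and 16.7%. In Wt replicate 2 it was 39.2% (36.5 to 42.0) beside 69.7% and 38.4%, and in Wt replicate 1, the library with fewest peaks, 3.93% (2.92 to 5.16) beside 23.3% and 4.87%. The intervals cover counting error only, since regions of 1 library are not independent. Lost regions were thus called more often in S_220_1 than in S_221_1, the library with the shorter list, although the rule had each of them called in S_221_0. Without EF replicate 3 in the rule the share in S_220_1 was 52.2%, and without EF replicate 4 the share in S_221_1 was 8.91%. When the rule was applied to the top 30000 peaks of each library, 391 regions were lost, and 81.3% of them were called in S_220_1 and 58.6% in S_221_1.

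Calls were also counted region by region. Both EF held-out libraries called 210 lost regions, 804 (64.5%) were called in S_220_1 and not in S_221_1, 20 showed the reverse and 213 were in neither. Among regions called in all 8, 19.3% were called in S_220_1 and not in S_221_1 and 1.73% showed the reverse, so the same lean was present there. List length differed, with 52438 and 27332 peaks in these libraries. With the top 27000 peaks of each, an alternative chosen after the data were seen, 46.0% of lost regions were called in S_220_1, 18.4% in S_221_1 and 20.2% in Wt replicate 2. The regions called in all 8 then stood at 75.7%, 76.7% and 57.4%.

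A low share in S_221_1 was not particular to the lost regions. Regions called in the 5 and in 1 of the 3 were called there in 24.2% of cases, and those called in 2 of the 3 in 21.5%. In the mirror set 3.52% were called in S_220_1, 1.39% in S_221_1 and 8.36% in Wt replicate 2. Across the 4 held-out libraries, 127 lost regions were called in none, 562 in 1, 465 in 2, 82 in 3 and 11 in 4. With 2 EF against 2 Wt held-out libraries an exact permutation test cannot go below p = 0.333, so none was made.

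**Figure D2:**
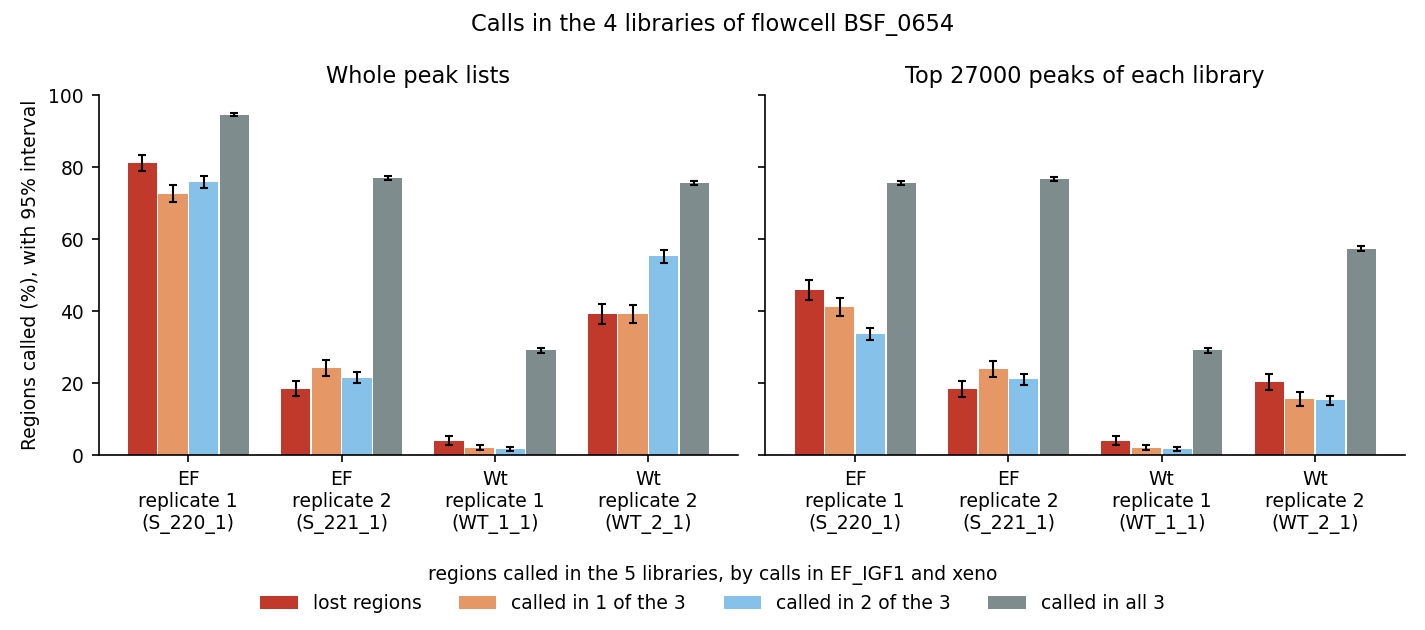
Share of regions called (%) in each held-out library, for whole peak lists (left) and the top 27000 peaks of each library (right). Bars are regions called in the 5 libraries, grouped by calls in the 3 EF_IGF1 and EF_IGF1_xeno libraries, and error bars are exact 95% intervals. For lost regions the bar is highest in EF replicate 1 (81.3% and 46.0%), and in EF replicate 2 it is 18.4% on both sides.

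Within 100 kb, the lost regions lay at 952 genes, of which 829 had 1 and 94 had 2. Of these genes, 654 (68.7%) also had a region called in all 8. Of all 12499 genes with a region called in the 5, 91.6% had one. This gap is in part set by the choice, since each of the 952 genes has a region that was not called in all 8. At 216 genes every region called in the 5 was lost, and 13 of them had 2 or more such regions. The others had only 1 region called in the 5, the lost one. Among the 13 were Lama4 and Stxbp6 with 3 each and Adra2a, Ankrd6, Cdh11, Fhl1, Galnt17, Hunk, Itga2, Lifr and Tiam1 with 2.

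Adhesion genes are described first. A locus below means all regions whose nearest gene, within 100 kb, is the one named. The lost regions enter every such count, so a gap between the 5 libraries and the 3 is in part set by the rule. Cdh11 encodes cadherin-11, the main cadherin of mesenchymal cells and osteoblasts. Its locus had 9, 14, 13, 5 and 3 called regions in Wt replicate 3, Wt_IGF1 replicate 1, Wt replicate 4, EF replicate 3 and EF replicate 4. It had 0, 0 and 0 in EF_IGF1 replicates 1 and 2 and EF_IGF1_xeno replicate 1. The rule puts the 2 lost regions of Cdh11 in each of the first 5 counts. All 5 of these libraries were above the other 3, with EF replicate 4 the lowest of them. The stronger of its lost regions, chr8:102740813-102741453 inside the gene, had folds of 13.8, 13.1, 12.7, 5 and 9.41 in the 5 libraries in the same order. The other, chr8:102784812-102785518, lay 384 bp from a gene end, with folds of 5.26, 6.28, 7.45, 9.47 and 7.41. In the held-out libraries the locus had 4 and 1 called regions in EF replicates 1 and 2 and 0 in both Wt libraries. The held-out Wt libraries thus differed from the Wt libraries of the rule at Cdh11. Wt replicate 1 called only 4.87% of all regions, so its 0 says little, while Wt replicate 2 called 38.4%.

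Lama4 encodes a laminin chain of vascular and muscle basement membranes. Called regions at its locus numbered 12, 13, 14, 7 and 3 in the 5 libraries and 1, 0 and 0 in the 3. The strongest lost region, chr10:38908069-38908780, lay 56998 bp outside the gene. Its folds were 16.8, 16.0, 16.1, 15.1 and 9.83. By percentile it stood at 97.7, 96.7, 97.4, 94.0 and 49.7, lowest in EF replicate 4. Itga2, the integrin chain of a collagen receptor, had 5, 7, 8, 4 and 2 called regions against 1, 0 and 0. One of its lost regions, chr13:114931633-114932326, covered the gene's start and formed a group of 3 within 14672 bp with others at Itga2 and its neighbour Itga1. No region called in all 8 lay between them.

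Prickle2, the planar cell polarity gene whose start is printed above, had 5 lost regions of 7 called in the 5 and no region called in all 8. Its locus held 17, 26, 24, 20 and 14 called regions in the 5 libraries. The 3 others held 8 in EF_IGF1 replicate 1, 0 in EF_IGF1 replicate 2 and 1 in EF_IGF1_xeno replicate 1. By the rule the 5 lost regions stand in each of the first 5 counts and in none of the last 3. That the groups did not overlap is thus in part set by the rule. Among the 3, EF_IGF1 replicate 1 kept the most. The lost region at its start, chr6:92706027-92706551, had folds of 13.1, 13.5, 11.8, 15.2 and 14.1. By percentile within the list it stood at 88.5, 94.4, 79.0, 97.8 and 73.6, lowest in S_221_0. It was called in EF replicates 1 and 2 among the held-out libraries. This start was therefore open in untreated cells of both EF lines on both flowcells.

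Galnt17 was named here after its values were seen. The region at its start, chr5:131306972-131308207, had folds of 5.72, 10.4, 8.41, 7.89 and 13.1 and was called in both EF held-out libraries. The locus held 2, 10, 16, 16 and 9 called regions in the 5 libraries and 0 in each of the 3, with 11 and 8 in EF replicates 1 and 2.

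Other genes with many lost regions follow. Setbp1, a nuclear protein that binds SET, had 4 lost regions of 5, and its locus held 18, 16, 17, 10 and 12 called regions against 0, 1 and 1. Zfp521, a zinc finger factor that restrains adipocyte formation, had 3 of 5 and 16, 25, 26, 10 and 18 against 4, 2 and 2. Pde3a, which breaks down cyclic nucleotides, had 4 of 5 and 14, 17, 8, 14 and 9 against 3, 0 and 1. At these loci each of the 5 libraries had more calls than any of the 3. The lost regions enter the counts, so this gap is in part set by the rule. Of the 5743 genes with 2 or more regions called in the 5, 6.62% showed such a gap. Pde4d, a larger phosphodiesterase gene, had 4 of 16 lost and kept 25, 28 and 19 called regions in the 3 libraries, so the loss there was partial.

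Arhgap26, a GTPase-activating protein, had the most lost regions, 6 of 16, with 6 called in all 8. Its strongest, chr18:38992343-38993733, had folds of 13.2, 15.3, 12.4, 11.7 and 14.2 and was called in all 4 held-out libraries. Cacna1c, the pore of an L-type calcium channel, had 5 of 12. C1qtnf7, a secreted protein of the C1q family, had 4 of 5, and its locus held 13, 14, 18, 12 and 6 calls against 4, 1 and 0. Rarb, a retinoic acid receptor, had 4 of 14 with 9 called in all 8. Stxbp6, which binds SNARE proteins, had 3 of 3.

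Each of the remaining genes named for having most lost regions had 3. They were Cdyl and Plxdc2 of 4, Adamts12, Tnni3k and Zfp521 of 5, and Antxr1, Atf6, Creb5, Rbms3 and Smg6 of 6. Dgki and Epas1 had 3 of 8, Arhgap28 and Lrmda 3 of 9, and Bnc2 3 of 10. Tln2, Glis3, Atxn1 and Mrtfa also had 3, of 10, 11, 12 and 12, and stood outside the 25 because ties went to genes with fewer regions called in the 5. At Tln2, Glis3 and Mrtfa the calls of the 3 libraries were not all below those of the 5. The highest of the 3 had 22, 22 and 14 and the lowest of the 5 had 21, 22 and 14. Adamts12 cuts matrix proteins, Antxr1 binds collagen, and Epas1 is the hypoxia factor HIF-2 alpha. Of the 121 genes with 2 or more lost regions, 80 (66.1%) had fewer called regions in each of the 3 libraries than in any of the 5, against 6.62% of the 5743 genes with 2 or more regions called in the 5. The lost regions enter these counts, so the gap is in part set by the rule. At Cdh11 and Galnt17 none of the 3 libraries called any region.

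**Figure D3:**
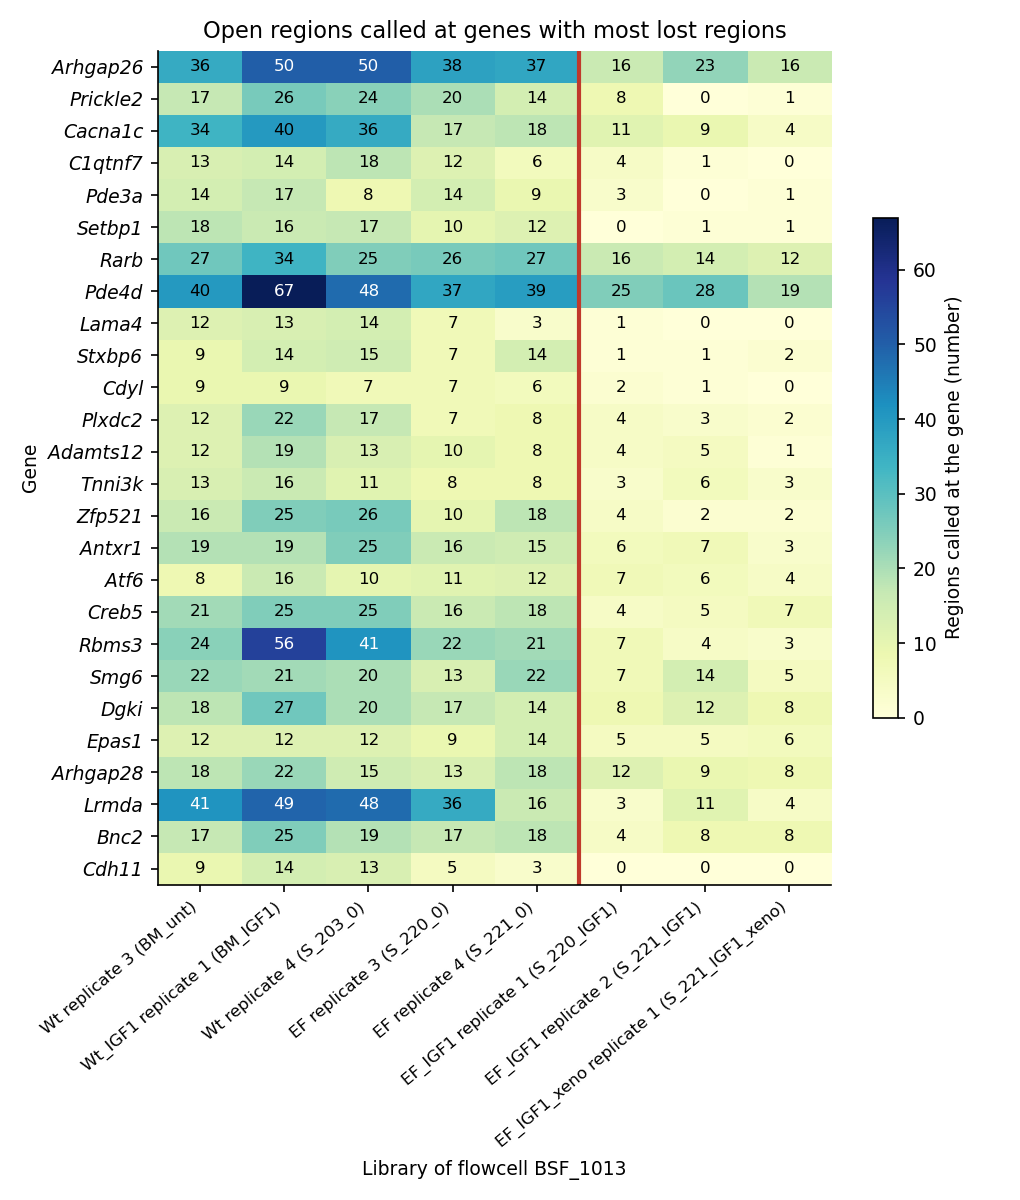
Number of regions called at each gene (nearest gene, within 100 kb) in the 8 libraries of flowcell BSF_1013, for the 25 named genes with most lost regions, ties at 3 going to genes with fewer regions, and Cdh11. The red line parts the 5 libraries that define the lost regions from the 3 that lack them, and the counts include the lost regions. Setbp1 has 10 to 18 regions left of the line and at most 1 right of it, while Pde4d has at least 19 in all 8 libraries.

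Neighbouring losses were also joined into groups with gaps of at most 50 kb. There were 1058 lost regions on their own, 76 pairs, 11 groups of 3 and 1 group of 4, the last at Arhgap26 over 64747 bp with no other region called in the 5 between. In a wider view, runs of consecutive regions called in 4 or more of the 5 and in none of the 3 were counted after the data were seen. These runs rest on the same calls as the rule and are given without a background count, as a description of position only. The longest held 13 regions over 674 kb at Zfp521 and Hrh4, of which 4 were lost regions. The next held 10 regions over 291 kb at an unnamed gene model, 1500009L16Rik, with 5 lost ones. A run of 9 regions with 4 lost ones reached from Got2 to Cdh11 over 7462 kb, and Ebf1, an early B cell and adipocyte factor, had a run of 8 with 1.

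By strength, 10 lost regions led the rest. They lay at Vamp9, Sgce, Plxdc2, Arhgap26, Ctif, Sec24b, Epb41l2, Lama4 and Lrmda, and 1, chr18:33666845-33667650, lay 128964 bp from the nearest gene. The strongest, chr5:99905984-99906779 at the start of Vamp9, reached a median percentile of 99.3 and was called in all 4 held-out libraries. Vamp9 has close relatives in the genome, and the sources used here do not say how reads with several matches were placed. Plxdc2, encoding a membrane protein with a plexin domain, had a region at chr2:16491237-16491830 with folds of 16.9, 16.6, 19.6, 14.7 and 18.6. It too was called in all 4 held-out libraries. The region at Ctif stood at percentiles of 98.5, 97.1, 97.8, 76.9 and, in EF replicate 4, 0.189. In that library the region at Plxdc2 stood at 89.9, so the strongest lost regions covered nearly the whole range of the S_221_0 list.

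Lists of genes were used to ask which functions the lost regions lay beside, reading each against the 6.06% of regions beyond 1 kb of a gene end that were lost. The lists were drawn up with earlier results of these data known, and no test of a list was made. Cadherins, integrins and laminins had 11 lost of 71 such regions (15.5%), and the WNT pathway 13 of 86 (15.1%). Both shares were well above that of all such regions, and the members of each list that gave them are named next. The first list included, beside those named, Itga1 with 2, and Itgb3, Itgb5, Lamb1 and Lamc1 with 1 each over all positions. In the second, Prickle2 alone gave 5 over all positions. Ror2, a receptor of noncanonical WNT, had 2 of 4, the WNT inhibitor Sfrp1 2 of 3 and the WNT-cleaving Trabd2b 2 of 9. Daam1 and Prickle1, which act in polarity, Tcf7l1 and Wnt4 had 1 each. At one end of Sfrp1, chr8:23411178-23411875 had folds of 10.4, 9.60, 12.2, 12.8 and 11.5.

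The label under which the regions were proposed calls them mesenchymal, and the lists bear on that only weakly. Regions of mesenchymal stem and limb genes were lost in 8 of 85 cases (9.41%), of collagens and fibrous matrix in 11 of 125 (8.80%) and of matrix proteases in 5 of 45 (11.1%). Muscle markers had 2 of 11 (18.2%), smooth muscle and pericyte markers 4 of 29 (13.8%) and blood markers 3 of 26 (11.5%). Endothelial markers had 2 of 25 (8%), epithelial markers 1 of 14 (7.14%) and neural markers 0 of 7. Marker lists of other cell types thus stood on both sides of the mesenchymal list. Twist1, Twist2, Pdgfra, Pdgfrb, Thy1, Runx2 and Sox9 had no lost region, and each had at least 1 region called in all 8. Prrx1, the limb mesenchyme factor once called Prx1, had 1 of 4, chr1:163243510-163244054. Its folds were 9.30, 4.61, 6.16, 5.25 and 4.70, its median percentile was 19.6, and no held-out library called it. The name lost regions is therefore used here instead. The defining blood gene Ptprc had 1 lost region of 2, with 13 of its 18 regions called in Wt replicate 2 and 0 or 1 in the 3 libraries. The part of other cell types in the result was not tested.

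**Figure D4:**
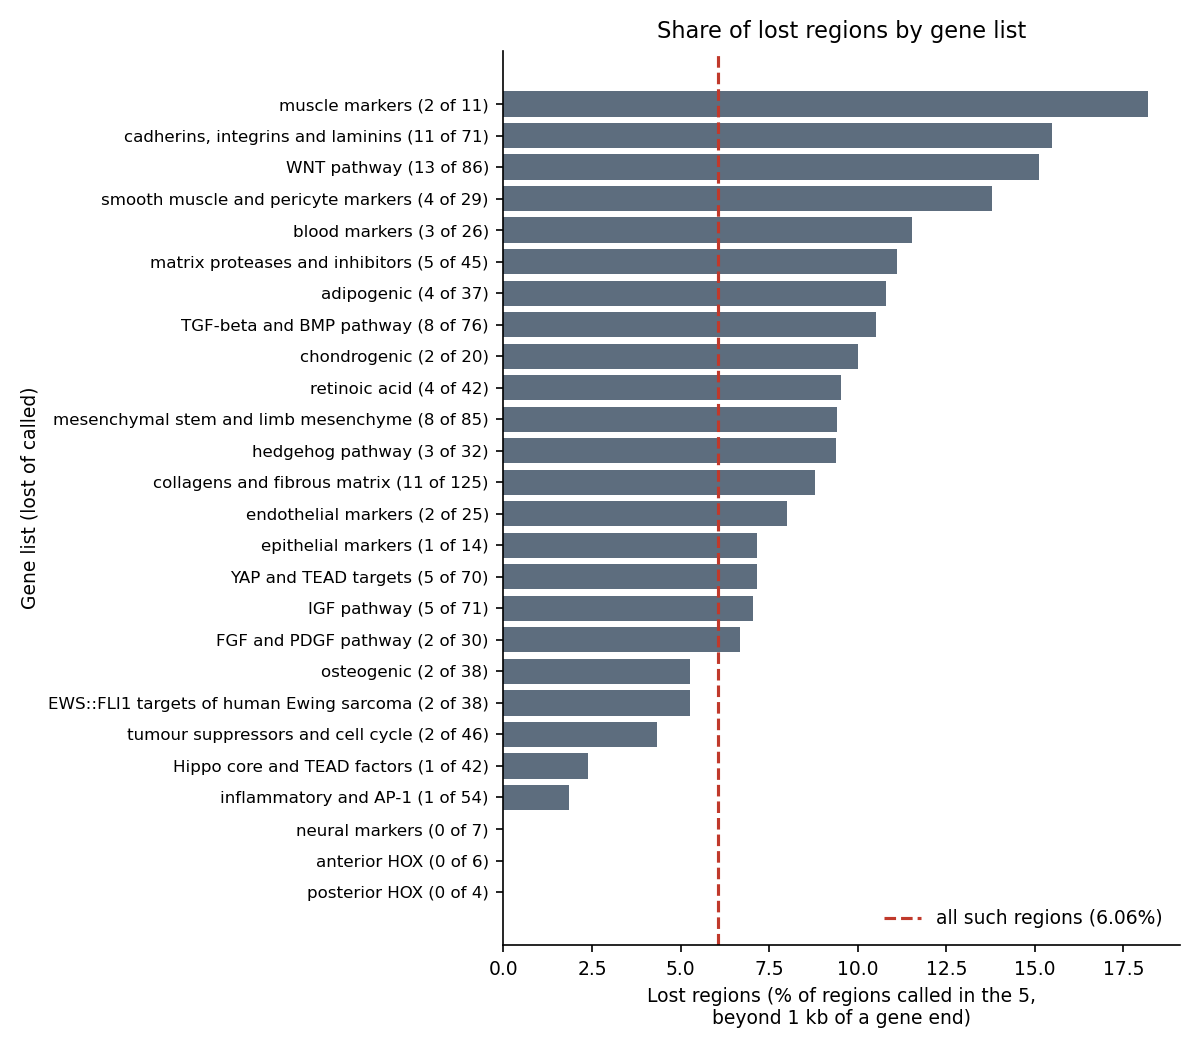
Lost regions as a share (%) of regions called in the 5 libraries and beyond 1 kb of a gene end, for 26 gene lists. The numbers lost and called stand beside each name, and the dashed line is the share over all such regions, 6.06%. The lists with over 10 lost regions that reach past 15% are the cadherins, integrins and laminins and the WNT pathway.

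Among signalling lists, the TGF-beta and BMP pathway had 8 lost of 76 (10.5%), among them 1 each at Bmp5, Bmp7, Bmpr1a, Smad3, Smad5, Smad7 and Tgfb2. With −log10 q of 5 or more in the rule, the list had 3. The hedgehog pathway had 3 of 32 (9.38%), at the transcription factors Gli2 and Gli3 and the receptor Ptch1, and 0 when regions were given to genes within 25 kb. The IGF pathway had 5 of 71 (7.04%), near the background, and 3 when regions were given to genes within 25 kb. A lost region 52325 bp from Igf1, the ligand, had folds of 8.86, 14.7, 17.3, 10.9 and 9.83 and was called in all 4 held-out libraries. Igf1r had 1 of 8 lost, and its 7 other regions called in the 5 were called in all 8. Adipogenic genes had 4 of 37 lost (10.8%), 3 of them at Zfp521 and 1 at Ebf2. Over all positions this list held 10 mirror regions among its 423 regions, the most of any list by count. Lists differed in size, and mirror regions were 0.796% of all regions.

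Lists tied to the oncogene and to YAP1 stayed near the background or below it. EWS::FLI1 targets known from human Ewing sarcoma had 2 of 38 lost (5.26%), and over all positions 3, at Hey1, Jak1 and Npy1r. YAP and TEAD targets had 5 of 70 (7.14%), of which 3 lay at Rbms3 counted over all positions, and Hippo core genes and TEAD factors 1 of 42 (2.38%). Yap1, Tead1, Wwtr1, Nkx2-2, Ccnd1 and Cdkn2a had no lost region. Inflammatory and AP-1 genes had 1 of 54 (1.85%), at Ptgs2, and osteogenic genes 2 of 38 (5.26%), at Sost and Tnfrsf11b. No region of the HOX or neural lists was lost, out of 4 to 7 called per list, too few to read.

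Lost regions were spread unevenly over chromosomes. Beyond 1 kb of a gene end, chromosome 18 had 71 lost of 618 regions called in the 5 (11.5%), the highest share, with 8.74% on chromosome 14 and 8.71% on chromosome 13. Chromosome 15 had 33 of 916 (3.60%) and chromosome 7 3.61%, the lowest shares. The mirror set ran partly the other way, with 24 regions (3.12% of those called in the 3) on chromosome 18 and 110 (6.32%) on chromosome 15, against 4.32% over all chromosomes. Among regions called in all 8 and beyond 1 kb of a gene end, the median percentile on chromosome 15 was 78.0 and 80.6 in EF_IGF1 replicates 1 and 2, beside 74.3 and 76.1 over all chromosomes. In Wt replicates 3 and 4 it was 65.5 and 71.3, beside 70.8 and 75.8. On chromosome 18 the EF_IGF1 libraries stood at 70.1 and 73.2 and the Wt libraries at 74.3 and 78.0. EF_IGF1_xeno replicate 1 stood at 64.1 on chromosome 15 and 62.1 on chromosome 18, beside 60.4 over all. EF replicate 4 stood at 79.3 and 79.4, beside 78.0. Strength at kept regions thus differed by chromosome in the Wt and EF_IGF1 libraries, while these last 2 libraries were above their overall value on both. The part of this in the result was not tested.

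**Figure D5:**
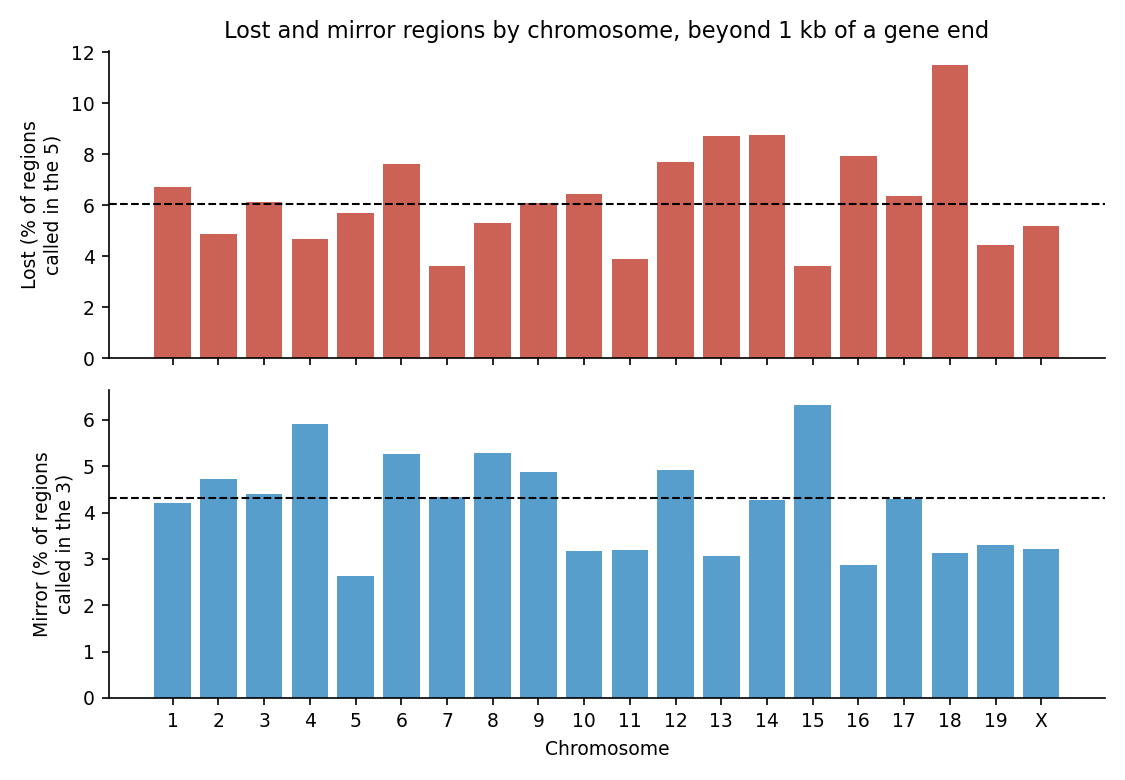
Lost regions as a share (%) of regions called in the 5 libraries (top) and mirror regions as a share of regions called in the 3 (bottom), by chromosome, beyond 1 kb of a gene end. Dashed lines are the shares over all chromosomes, 6.06% and 4.32%. Chromosome 18 is highest in the top panel at 11.5% and chromosome 15 is highest in the bottom panel at 6.32%.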

How the data were processed

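Peaks of 12 ATAC-seq libraries were used as deposited, 1 list per library, which the authors thus called library by library. The submitters' processing notes name MACS2, with no version, and build GRCm38.p3. The sources used here name no aligner, filters, read shift or controls. Per the labels' protocols, 20000 to 50000 cells were used and reads were 50 bp, single-end. For each peak the deposited lists hold a fold (the ratio to local background), −log10 p and −log10 q (of the p-value and q-value), and a score equal to −log10 q times 10. These were used to rank and filter peaks within a list. The folds of a region in several libraries stand side by side as a description, and strength is compared by percentile within the list.

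Regions were made and compared in Python 3.11.15 with pandas 2.3.3, numpy 2.4.6 and scipy 1.17.1, and the merging and rule were tested on simulated data. Distances are from a region's strongest summit to 21631 protein-coding genes of RefSeq (GRCm38.p6). All 628 genes of the 26 lists matched. The lost regions and the lists were chosen with earlier results of these data known. Named were the 25 genes with most lost regions, up to 6 per list, 20 fixed genes and the 10 strongest regions; not every such gene is given. The region given is the one with the highest median percentile. RefSeq start windows on chromosome 18 were not used here. Some named genes are not reported here.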

Additional observations from a re-analysis of the deposited data

How the results depend on the processing

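No paired test was made, because the lost regions were chosen by their calls. The replicate numbers only name the libraries. The titles tie libraries by line, with 1 library per condition, and line S_221 alone is given below as a comparison within a line. The number of lost regions was 1068 with −log10 q of 5 or more and 1241 with summits within 500 bp, and moved to 391 with the top 30000 peaks of each library, 15285 in line S_221 alone and 61 when Wt replicate 2, EF replicate 1 and EF replicate 2 also had to call them. Leaving out each library of the rule gave 1272 to 3040, the most without EF replicate 4. The share within 1 kb of a gene end was 10.5% with the top 30000 peaks, 6.12% in line S_221 alone and 9.04% to 14.3% leaving out each library. The share called in EF replicate 1 was 78.5% with the stricter q-value, 83.6% with it in the 5 only, 27.0% in line S_221 alone, 46.0% with the top 27000 peaks of the held-out libraries and 52.2% to 81.6% leaving out each library. In EF replicate 2 it was 20.9% with the stricter q-value in the 5 only, 58.6% with the top 30000 peaks, 8.94% in line S_221 alone and 8.91% to 22.4% leaving out each. In Wt replicate 1 it was 5.63%, 0.739% and 2.82% to 4.30% under the last 3 of these, and 2.76% beyond 1 kb of a gene end. In Wt replicate 2 it was 30.4%, 18.9% and 33.0% to 40.6%, with 34.3% beyond 1 kb of a gene end and 20.2% with the top 27000 peaks. The cause of these shifts was not tested. Of the 26 list counts, 22 stayed within 1.5 times with the stricter q-value, 23 within 25 kb of a gene, 19 with every gene within 100 kb, 22 without EF_IGF1 replicate 1 and 26 without EF_IGF1_xeno replicate 1. The last 2 settings for held-out calls (the top 27000 peaks, and beyond 1 kb) were chosen after seeing the data. Depth limits all calls: a missing peak is not evidence of closed chromatin.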
